A study of Cricetiscus sungorus with 12 samples.

Results

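In torpor, 185 genes of the Djungarian hamster hypothalamus had a transcript length that lay apart from that of all normothermic hamsters, 47 with a longer and 138 with a shorter effective length. These genes are described here with the length and the counts side by side. The polyA RNA of the hypothalamus was sequenced from 12 adult outbred hamsters, sacrificed about 4 h after lights on in 3 groups of 4. LP-NT hamsters (2 males, 2 females as labelled) stayed in long photoperiod with 16 h of light and were normothermic. SP-NT hamsters (2 males, 2 females) were acclimated to short photoperiod with 8 h of light and were normothermic on a day without torpor. SP-HT hamsters (3 males, 1 female) had the same short photoperiod and were hypothermic in spontaneous daily torpor. By the study's methods both SP groups carried an implanted temperature transmitter and the LP group did not, and every SP hamster had shown torpor before.

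The members were chosen by measured values. A member had a mean expected count of at least 100 in each group, an effective length in all 4 SP-HT hamsters above, or in all 4 below, that of each of the 8 normothermic hamsters, and a mean in SP-HT at least 1.1 times, or at most 1/1.1 times, the mean of those 8. Of 17191 GeneIDs in the files, 11603 had enough counts, and the 185 members were 1.59% of these. The torpor differences in length given below are therefore a description, and no test is attached to them.

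A gene can be transcribed from several start sites, spliced in several ways and cut and polyadenylated at several ends, and the mix of the resulting transcripts can change without a change in the number of molecules. The program RSEM, which estimates how many reads come from each transcript, reports for each gene the length averaged over its transcripts and weighted by their estimated abundance. Effective length is that length less the stretch in which a sequenced fragment cannot start. A longer value in a sample means that longer transcripts had a larger estimated share among all those grouped under that gene. Spontaneous daily torpor is a short, controlled fall of metabolic rate and body temperature that winter-acclimated Djungarian hamsters enter and leave by themselves, and the hypothalamus is held to govern it.

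The files identify each gene by the number of the mouse gene (GeneID) that its assembled hamster transcripts resembled best. A GeneID can therefore join isoforms, unspliced precursors, fragments of the assembly and hamster paralogs, and a shift in its length can be a shift between any of these. No names stand beside these numbers in the files. Of the study's longer list of indicator genes, 61 had numeric values printed for both comparisons, and 59 of these could be matched. The name was given to the single GeneID whose log2(FC) and adjusted p equalled the printed ones, with the sign for torpor left out. For photoperiod the match included the sign, with SP-NT over LP-NT as labelled. For torpor the sign of SP-HT over SP-NT, as labelled, was opposite to the printed sign in 59 of 59 matched records. Whether the ratio was written the other way round or the torpor labels are exchanged was not tested. The records that separate the sexes, described below, matched the sex label of each SP-HT hamster. They had 8 counts in the female, replicate 02, and 1853 to 2321 in the males, replicates 10, 26 and 33. In SP-NT they matched the label except in replicate 19, labelled male, with 1 count. Every torpor direction given here, of length and of counts, is therefore that of the labels. If SP-HT and SP-NT were exchanged, the differences between them would turn. A member would then meet the rule only where SP-NT also lay apart from LP-NT, which was not asked of the members here. Of the 59 matched genes 49 had enough counts, and 2 of them, Per2 (period 2) and Thrb (thyroid hormone receptor beta), were members. The other 183 members have no name here. Those at the ends of the range are given by their GeneID and the rest by rank (rank 1 is the largest shift in its class), and lists of splicing factors or of cell type markers could not be looked up for this reason.

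Expected counts summed to between 20204979 and 24186918 per hamster. The total was 21722053 ± 1184335 (SD, n = 4) in SP-HT and 23732478 ± 594652 (SD, n = 4) in SP-NT (two-sided exact permutation test, p = 0.0571, adjusted p = 0.303 over 6 comparisons of library values). The stretch lost to fragment length was 276 bases in SP-HT replicates 02 and 10, 278 in replicate 26 and 249 in replicate 33, against 257 to 276 bases in the normothermic hamsters, and the mean difference of 6.41 bases was within the spread between hamsters (two-sided exact permutation test, p = 0.242, adjusted p = 0.485). In the 484 GeneIDs with enough counts and a single transcript, where only this stretch can move the value, the ratio of SP-HT to normothermic effective length was between 0.983 and 0.999. None lay without overlap. These GeneIDs carry nearly the same stretch in a given hamster, so this repeats the overlap just given and is no further check. The hypothalamic neuropeptide records matched to Avp, Trh and Pomc were present in every hamster, with 228 to 907 TPM, 54.1 to 112 TPM and 31.3 to 147 TPM. SP-NT replicate 19 is labelled male, but 3 records with together 1560 to 2324 counts in the other males and 3 to 8 counts in the females had 1 count there. Without this hamster 49 longer and 159 shorter GeneIDs met the rule, among them 45 of the 47 and 137 of the 138. Without LP-NT replicate 01, which stood farthest from its group in counts (chi-square per degree of freedom of 27.8 to 39.2 against the others, which had 9.30 to 14.2 among each other), the numbers were 55 and 156, among them 43 and 135.

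Without overlap between SP-HT and the 8 normothermic hamsters, irrespective of size, 146 of 11603 GeneIDs (1.26%) were longer and 318 (2.74%) were shorter in SP-HT. Past 1.1-fold there were 47 longer (0.405%) and 138 shorter (1.19%). The same rule applied to photoperiod, with the 4 LP-NT hamsters against the 8 SP hamsters, gave 20 longer GeneIDs (0.172%) and 2 shorter ones (0.0172%). Between SP-HT and SP-NT alone 102 were longer and 242 shorter, and between SP-NT and LP-NT 26 were longer and 46 shorter. These comparisons share hamsters and are given as counts.

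**Figure D1:**
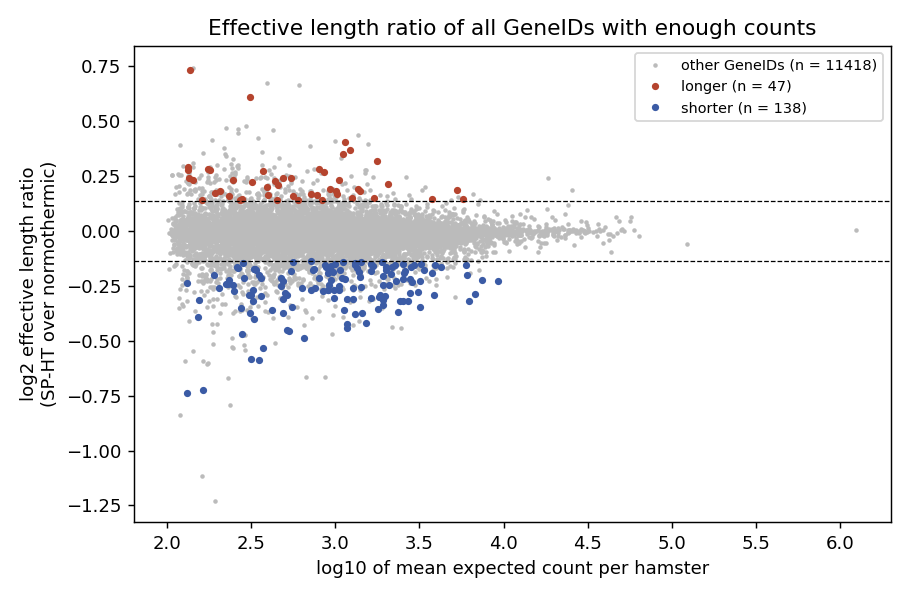
Each point is 1 of the 11603 GeneIDs with enough counts. The x axis is the log10 of its mean expected count per hamster, and the y axis the log2 ratio of mean effective length in SP-HT over the 8 normothermic hamsters. Dashed lines mark 1.1-fold, and coloured points are the 47 longer and 138 shorter members. Many other GeneIDs lie beyond the lines because their hamsters overlap between groups.

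The longer members had a median ratio of 1.15, with a range from 1.101 to 1.66, and a median difference of 448 bases, from 82.2 to 2668 bases. Their median normothermic length was 2910 bases. In 13 of 47 the ratio was at least 1.2. The shorter members had a median ratio of 0.844, with a range from 0.5999 to 0.909, with a difference of -77.1 to -2980 bases (median -599 bases) on a median normothermic length of 4041 bases. In 58 of 138 the difference was at least 1.2-fold. Ratios this large were not limited to members, since the 11603 GeneIDs reached from 0.427 to 1.67, but the hamsters of the others overlapped between the groups or did not differ by 1.1-fold.

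Each hamster was set against the normothermic mean of each member. In the longer members the median deviation was 14.95% in SP-HT replicate 02, 12.8% in replicate 10, 14.8% in replicate 26 and 14.9% in replicate 33. The 8 normothermic hamsters lay between -1.70% and 1.68%. In the shorter members the median deviation was -17.0%, -14.3%, -14.1% and -14.0% in the same order, against -1.76% to 3.05% in the normothermic hamsters. All 4 hamsters in torpor thus carried the shift in both classes, as the rule requires of each gene. Over the other GeneIDs with enough counts the medians of all 12 hamsters lay between -0.728% and 0.418%. SP-HT replicate 02, the only female of its group, was the shortest of the 4 in 54 of the 138 shorter members, and the longest in 13 of the 47 longer ones.

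**Figure D2:**
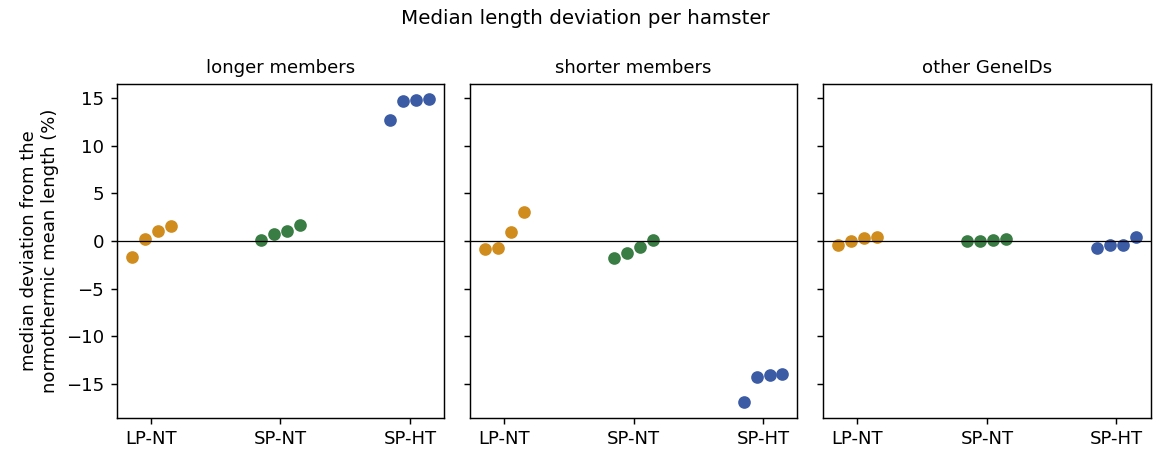
Each point is 1 hamster, and the y axis gives the median over genes of the deviation of effective length from the mean of the 8 normothermic hamsters, in percent. In the 47 longer members SP-HT hamsters sit between 12.8% and 14.95%, in the 138 shorter members between -17.0% and -14.0%, and in all other GeneIDs with enough counts near 0.

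The longer member with the largest ratio was GeneID 108907 (ratio 1.66), assembled as 15 transcripts. Its effective length in SP-HT was 4029, 3714, 5262 and 4635 bases in replicates 02, 10, 26 and 33. In SP-NT it was 2890, 2465, 2819 and 2531 bases in replicates 19, 36, 37 and 38, and in LP-NT 1955, 3396, 3007 and 2183 bases in replicates 01, 02, 03 and 05. The lowest SP-HT hamster lay 318 bases above the highest normothermic one, while the LP-NT hamsters alone spread from 1955 to 3396 bases. It was a lowly counted gene, with 148 ± 28.1 (SD, n = 4) expected counts in SP-HT, 146 ± 18.6 in SP-NT and 120 ± 29.8 in LP-NT. Counts overlapped between the groups (log2(FC) 0.20 for SP-HT over SP-NT, standard error 0.14).

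GeneID 230582 (ratio 1.53, 7 transcripts) measured 8413, 7298, 8354 and 6816 bases in SP-HT, in the same order of replicates, against 6217, 4415, 3714 and 4500 bases in SP-NT and 5575, 6361, 6531 and 3101 bases in LP-NT. Its transcripts came from 6 Trinity genes (groups of transcripts that the assembler put together), and it shared a Trinity gene with another GeneID. The groups were apart by 285 bases, and the normothermic hamsters varied from 3101 to 6531. Counts were higher in SP-HT than in SP-NT by a log2(FC) of 0.47 with a standard error of 0.20, and were not called. Per length, the level went the other way, with 5.71 ± 1.35 TPM (SD, n = 4) in SP-HT and 7.06 ± 0.993 TPM in SP-NT. TPM, a relative transcript number, divides the counts by effective length, so a gene that becomes longer at the same count has a lower TPM.

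The largest relative shortening was that of GeneID 244431 (ratio 0.5999, 8 transcripts). It measured 4198, 3584, 4671 and 5420 bases in SP-HT. SP-NT hamsters had 7984, 6639, 6023 and 6778 bases, and LP-NT hamsters 8067, 7981, 8111 and 8007 bases. LP-NT hamsters were close to each other, together with SP-NT replicate 19, the 3 other SP-NT hamsters lay between, and the SP-HT hamsters lay at least 603 bases below all of them. Counts were 112 ± 8.81 (SD, n = 4) in SP-HT, 150 ± 11.5 in SP-NT and 132 ± 9.45 in LP-NT, with a log2(FC) for torpor of -0.24 (standard error 0.11).

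GeneID 26568 (ratio 0.605, 14 transcripts) followed, with 1965, 2223, 2440 and 738 bases in SP-HT. Its SP-NT values were 2517, 2947, 3103 and 2819 bases, and its LP-NT values 2923, 2655, 4349 and 3053 bases. SP-HT replicate 33 was far below the other 3 in torpor, and without it the ratio was 0.725. The distance between the groups was 77.4 bases. Counts spread widely, from 63.5 to 209 in SP-HT and from 192 to 302 in SP-NT (log2(FC) -0.78, standard error 0.32), and the gene was called in counts only without SP-HT replicate 10 (log2(FC) -1.24).

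**Figure D3:**
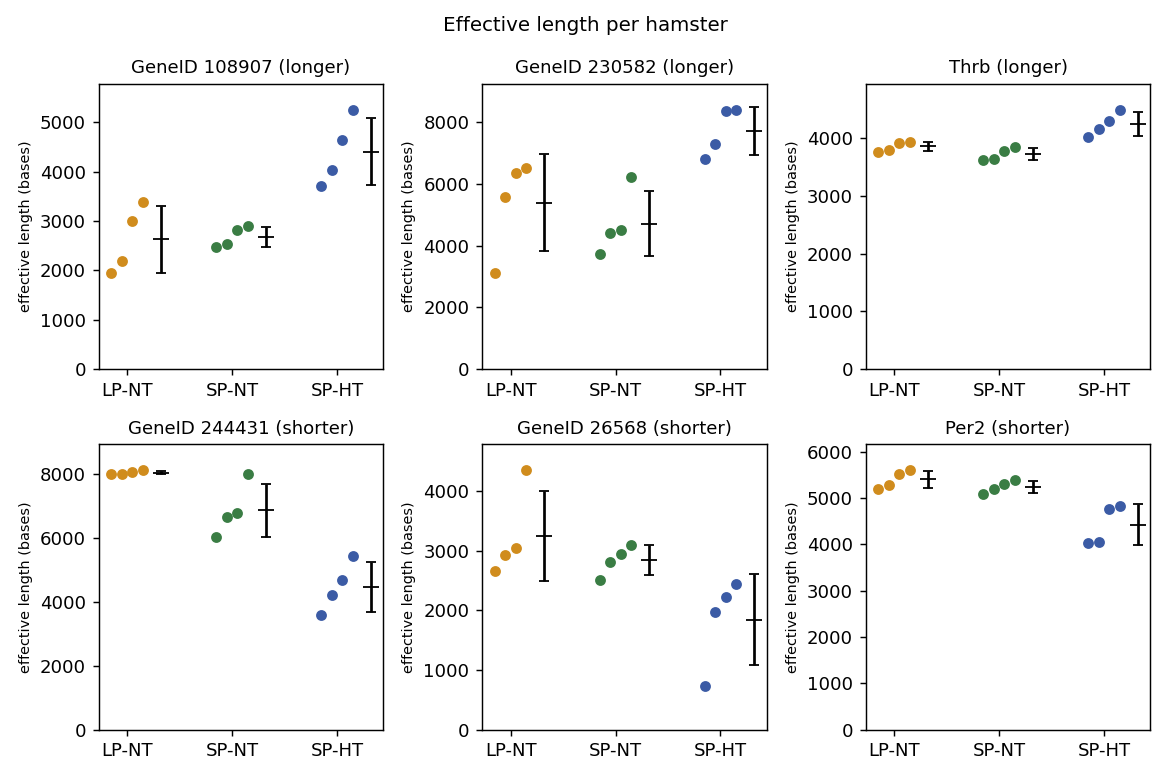
Effective length in bases for 6 members, 1 point per hamster, with the mean and SD of each group (n = 4) beside the points. The upper row shows longer members (108907, 230582 and Thrb), the lower row shorter ones (244431, 26568 and Per2). In each panel the 4 SP-HT hamsters lie beyond all 8 normothermic ones, by 88.0 bases in Thrb and 249 bases in Per2.

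Over the 10 members with the largest ratio, the longer ones ranged from 1.21 to 1.66 with 5 to 22 transcripts and 132 to 1762 mean counts, and the shorter ones from 0.5999 to 0.735 with 8 to 29 transcripts and 132 to 1172 mean counts. The 5 longer members with the highest counts had 1762 to 5775 mean counts and ratios from 1.104 to 1.25, and the 5 highest shorter members had 6072 to 9253 mean counts and ratios from 0.801 to 0.870. The most counted shorter member measured 9417, 10408, 10527 and 9823 bases in SP-HT, against 11473 to 12149 in SP-NT and 11389 to 12172 in LP-NT. Its counts were close, with a mean of 9260 ± 711 (SD, n = 4) in SP-HT and 9843 ± 960 in SP-NT. In these 10 highly counted members the torpor log2(FC) in counts lay between -0.07 and 0.09. Their TPM was lower in SP-HT in 5 of 5 longer and higher in 5 of 5 shorter ones. This follows from dividing near-equal counts by the lengths on which they were chosen, and nothing is read from it.

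Thrb encodes a nuclear receptor for thyroid hormone and is known to be made in several isoforms. Thyroid hormone action in the hypothalamus is a main switch of the seasonal response to photoperiod. The record matched to Thrb, 1 Trinity gene with 7 transcripts, was a longer member with a ratio of 1.12. It measured 4171, 4030, 4501 and 4301 bases in SP-HT, against 3774, 3642, 3634 and 3848 bases in SP-NT and 3773, 3942, 3924 and 3806 bases in LP-NT. The means were 4251 ± 200 (SD, n = 4), 3724 ± 105 and 3861 ± 84.5 bases in the same order of groups. Its counts were close between the groups, with 18.6 ± 0.603 CPM (normalized counts relative to library size, SD, n = 4) in SP-HT, 18.0 ± 2.65 CPM in SP-NT and 16.5 ± 3.75 CPM in LP-NT, and a log2(FC) for torpor of 0.04 (standard error 0.10). The Trinity gene of Thrb also holds transcripts assigned to another GeneID.

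Of 9 matched thyroid records with enough counts, only Thrb was a member. In the other 8 the hamsters of SP-HT and the normothermic groups overlapped. The record of Thra, the alpha receptor for thyroid hormone, had a ratio of 0.991, Dio2, the deiodinase that activates the hormone, 0.999, and Mct8, a transporter that carries it into cells, 1.02. The record matched to Trhr2, a receptor for thyrotropin-releasing hormone, was the nearest to the rule with a ratio of 0.850. It measured 2264 ± 91.5 bases (SD, n = 4) in SP-HT, with 2396 bases in its longest hamster, and 2630 ± 269 bases in SP-NT, with 2384 bases in the shortest.

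Per2 is a core repressor of the circadian clock, which together with the cryptochromes shuts off its own transcription in a daily cycle. The record matched to Per2, with 15 transcripts in 6 Trinity genes, was a shorter member with a ratio of 0.831. It measured 4835, 4029, 4051 and 4771 bases in SP-HT, against 5384, 5084, 5306 and 5192 bases in SP-NT and 5203, 5511, 5290 and 5597 bases in LP-NT. SP-HT hamsters fell into a pair of shorter values (replicates 10 and 26) and a pair of longer ones, with a mean of 4422 ± 442 (SD, n = 4), and both pairs lay below all others (5241 ± 131 bases in SP-NT and 5400 ± 184 in LP-NT).

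Counts of Per2 were 33.7, 36.4, 29.2 and 36.7 CPM in SP-HT, 45.0, 41.5, 50.8 and 53.3 CPM in SP-NT, and 38.5, 40.5, 36.3 and 37.1 CPM in LP-NT. All SP-HT hamsters lay below all SP-NT hamsters, but replicates 10 and 33 lay within the range of LP-NT. The log2(FC) for torpor was -0.49 (standard error 0.10). The call of Per2 in counts was lost without SP-NT replicate 19, 37 or 38 or SP-HT replicate 02, 10 or 26, with log2(FC) between -0.52 and -0.42, and the 2 other omissions left it in place. It was also lost in DESeq2 with effective lengths (log2(FC) -0.24). Per length, Per2 had 20.8 ± 2.51 TPM (SD, n = 4) in SP-HT, 25.4 ± 2.91 in SP-NT and 19.4 ± 0.799 in LP-NT.

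Of 16 matched clock records with enough counts, only Per2 was a member, and the other 15 all overlapped, with ratios from 0.941 to 1.04. The record of Per1 had a ratio of 0.985 and that of Per3 0.941. Cry1 and Cry2, the cryptochrome partners of the period proteins, had 0.959 and 0.988, and Bmal1, a subunit of the activator that they inhibit, had 0.962. Bhlhe40, a transcriptional repressor with clock-controlled expression, was higher in counts in the hamsters labelled SP-HT (log2(FC) 0.47, standard error 0.05, called by edgeR), while its ratio of lengths was 0.999. None of the matched records with enough counts from the study's transcription (5), growth (5) and metabolism (14) groups was a member.

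**Figure D4:**
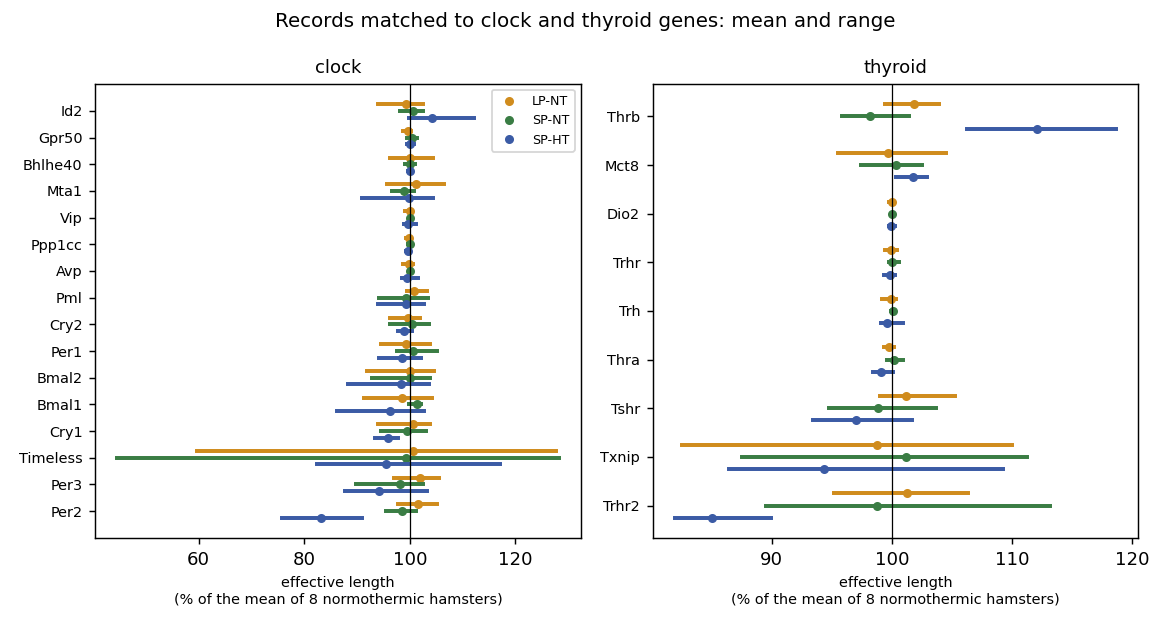
Effective length of the matched clock (left) and thyroid (right) records with enough counts, as percent of the mean of the 8 normothermic hamsters on the x axis. Points are group means and lines reach from the lowest to the highest of the 4 hamsters in each group. Only for Per2 and Thrb does the SP-HT line clear both normothermic lines. Timeless has the widest lines.

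At the edge of the rule, the 3 longer members nearest to 1.1-fold had ratios of 1.1013, 1.1014 and 1.1023, and the 3 longer GeneIDs without overlap just outside had 1.0984, 1.0970 and 1.0970. On the shorter side these were 0.9090, 0.9073 and 0.9072 inside, and 0.9094, 0.9111 and 0.9112 outside. The members nearest to the limit thus differ little from those left out. In the member with a ratio of 1.1014, SP-HT hamsters measured 3214 to 3441 bases and normothermic ones 2683 to 3161.

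The rule did not use the number of assembled transcripts. It was 11 at the median in longer members and 15 in shorter ones, beside 9 in all GeneIDs with enough counts, and no member had fewer than 2. The share of shorter members was larger in classes with more transcripts, from 0.184% of the 2179 GeneIDs with 2 to 4 transcripts to 0.761% with 5 to 9, 1.54% with 10 to 19 and 3.15% of the 1491 with 20 or more. Longer members made up 0.184%, 0.479%, 0.487% and 0.469% of the same classes. A GeneID with a single transcript cannot shift except by fragment length.

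Shorter members were joined from a median of 6 Trinity genes, beside 3 in longer members and 3 in all GeneIDs with enough counts. In 10 longer and 12 shorter members all transcripts came from 1 Trinity gene, the assembler's approximation of a locus. Their ratios ranged from 1.101 to 1.22 and from 0.691 to 0.898. In 20 of 47 longer members (42.6%) and 44 of 138 shorter ones (31.9%) a Trinity gene was shared with another GeneID, beside 27.7% of all 11603. In the remaining 27 longer and 94 shorter members, which share none, the median ratios were 1.16 and 0.844. The assembled sequences were not used here, so which transcripts exchanged their shares cannot be told.

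The rule did not compare SP-NT with LP-NT, but it placed all 8 of these hamsters on one side of SP-HT, which limits how far the groups can differ in a member. The members' photoperiod values are therefore a description. No member was called for effective length, and neither was any other of the 11119 GeneIDs tested with at least 2 transcripts and enough counts (0 called, 0.00%, limma on log2 effective length with Benjamini-Hochberg adjustment, against 523, or 4.70%, at an unadjusted p under 0.05). The median log2 difference, SP-NT over LP-NT, was 0.01 in longer and -0.02 in shorter members, beside 0.00 over all, and its largest size in a member was 0.27. SP-NT was the shorter group in 94 of 138 shorter members and the longer group in 27 of 47 longer ones, beside 5516 shorter and 5603 longer of 11119.

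Single members differed in where SP-NT stood. For GeneID 244431 the photoperiod log2 difference in length was -0.24 (standard error 0.08). For Per2 it was -0.04 (standard error 0.03) and for Thrb -0.05 (standard error 0.02). Against SP-NT alone the ratios of the longer members ranged from 1.07 to 1.65 (median 1.14), and against LP-NT alone from 1.09 to 1.67 (median 1.15). For the shorter members the ranges were 0.645 to 0.922 (median 0.849) and 0.556 to 0.915 (median 0.840).

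In counts, none of the 185 members was called for photoperiod (0 called, beside 6 of 16199 GeneIDs, 0.0370%, edgeR, adjusted p). At an unadjusted p under 0.05 there were 2 longer and 6 shorter members, beside 4.84% of all GeneIDs tested, and DESeq2 also called 0 members. Per2 had the smallest adjusted p of the members, with a log2(FC) of 0.31, a standard error of 0.09 and an adjusted p of 0.902 in edgeR, and higher CPM in all 4 SP-NT than in all 4 LP-NT hamsters.

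For torpor, SP-HT against SP-NT, edgeR called 2 of the 47 longer members, both higher, where 0.506% of 16195 GeneIDs were called higher, and 8 of the 138 shorter members, all lower, where 1.90% were called lower. Over both directions the share was 2.40% (82 higher and 307 lower). The members were chosen on the same hamsters and the same contrast, so nothing is read from these shares. Most members were not called in counts, and neither were most of all GeneIDs tested. The median log2(FC) in counts was 0.04 in longer members, -0.08 in shorter ones and 0.01 in all GeneIDs with enough counts, and it was below 0 in 21 of 47, 98 of 138 and 5483 of 11603. In bulk tissue fewer cells of a type and less RNA per cell cannot be told apart, and neither can they be told from a shift in transcript mix between cell types.

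TPM divides by the effective length on which the members were chosen, so the signs of the medians below are partly fixed by the choice, and nothing is read from them. Between SP-HT and SP-NT the mean TPM was lower in 43 of 47 longer members (median log2 ratio -0.24) and higher in 97 of 138 shorter ones (median 0.11), beside a median of -0.03 in all GeneIDs with enough counts. DESeq2 with effective lengths as normalization factors called 1 longer member higher and 6 lower, and 21 shorter members higher and 2 lower, where 1.87% of all GeneIDs were called higher and 2.82% lower. DESeq2 without lengths called 3 longer members higher and 1 lower, and 0 shorter members higher and 21 lower, where 2.55% and 3.73% were called.

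**Figure D5:**
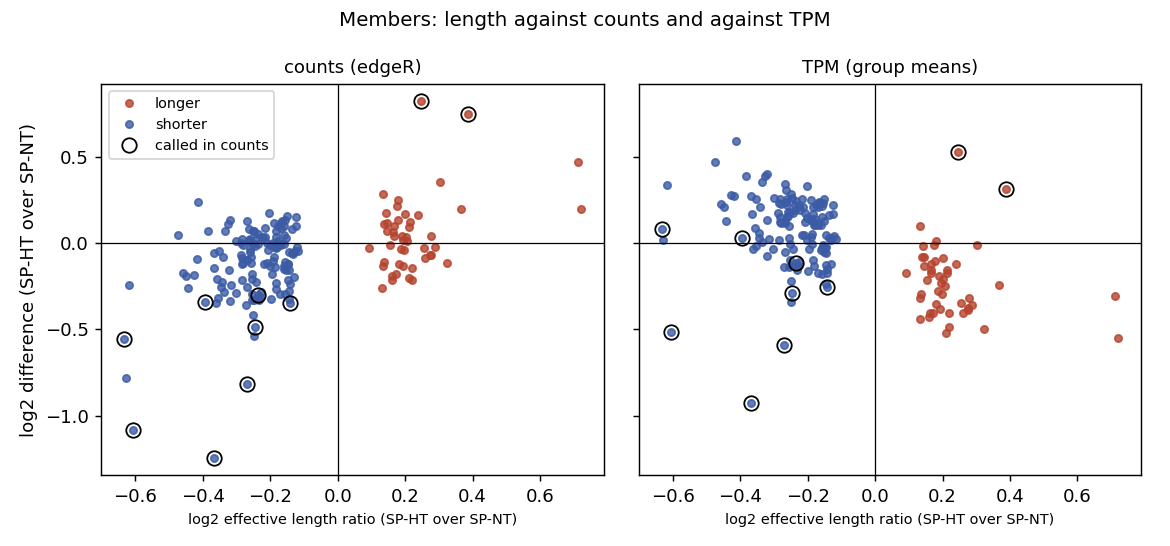
Each point is a member. The x axis is the log2 ratio of mean effective length, SP-HT over SP-NT, and the y axis the log2 difference between these groups, in counts from edgeR on the left and in mean TPM on the right. Rings mark the 10 members called in counts. Shorter members lie mostly just below 0 in counts and mostly above 0 in TPM, and 43 of 47 longer members lie below 0 in TPM.

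The 8 shorter members called lower in counts had log2(FC) from -1.24 to -0.30 and ratios of length from 0.665 to 0.896. The smallest adjusted p belonged to a member of 9 transcripts in 3 Trinity genes, rank 15 among the shorter ones. It measured 1850, 1881, 1808 and 1755 bases in SP-HT, against 2291 to 2443 bases in SP-NT and 2191 to 2516 in LP-NT (ratio 0.770). Its counts were 37.0, 24.6, 25.4 and 31.2 CPM in SP-HT, 76.3, 63.9, 72.6 and 67.3 CPM in SP-NT and 97.6, 63.9, 66.9 and 63.6 CPM in LP-NT, apart without overlap. The log2(FC) was -1.24 (standard error 0.12), and its TPM was also lower, with 43.8 ± 9.25 (SD, n = 4) against 83.1 ± 6.82 in SP-NT. Both its length and its TPM lay without overlap between SP-HT and the 8 other hamsters.

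Of these 8 members 6 had a lower mean TPM in SP-HT than in SP-NT and 2 a higher one. Rank 3 among the shorter ones had a log2(FC) of -1.08 in counts (standard error 0.14) at a ratio of 0.665, with 8.85 CPM in SP-HT and 18.8 CPM in SP-NT. Rank 4 had a log2(FC) of -0.55 (standard error 0.10) at a ratio of 0.667, and its log2 ratio of TPM was 0.08. None of the 8 shared a Trinity gene with another GeneID.

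The 2 longer members called higher in counts were rank 4 and rank 15 by ratio. Rank 4, with 5 transcripts, measured 8105, 7962, 9003 and 7802 bases in SP-HT, against 5009 to 7379 in SP-NT and 5033 to 7166 in LP-NT (ratio 1.29). Its counts were 87.7, 69.5, 69.6 and 82.1 CPM in SP-HT and 53.6, 35.3, 45.6 and 49.9 CPM in SP-NT (log2(FC) 0.74, standard error 0.12). Rank 15, with 3 transcripts, had 8.44 CPM in SP-HT and 4.78 CPM in SP-NT (log2(FC) 0.82, standard error 0.14) at a ratio of 1.18. In both the mean TPM was higher in SP-HT as well. Both share a Trinity gene with another GeneID.

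Leaving out 1 hamster at a time, 33 of the 47 longer and 120 of the 138 shorter members met the rule in all 12 cases. Hamsters that do not overlap in the full set cannot overlap in a part of it, so here and in the other omissions a member could be lost only by the fold or the counts. The number that met it then lay between 47 and 82 for longer and between 151 and 213 for shorter GeneIDs, because fewer hamsters are easier to separate. It moved by over 1.5 times without SP-HT replicate 10 (82 longer), replicate 33 (73 longer, 213 shorter) and replicate 26 (210 shorter). With unsubtracted transcript length in place of effective length, 158 of the 185 members met the rule.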

How the data were processed

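Hypothalamic polyA RNA of 12 hamsters was sequenced in pairs. The authors trimmed the reads (Trim Galore 0.6.6), assembled all samples de novo with Trinity, kept those that hit a mouse protein best, grouped them by mouse GeneID, mapped each sample back (Bowtie 1.3.0) and quantified it with RSEM 1.3.1, as their processing notes and methods state. Deposited are, per GeneID and sample, RSEM expected counts, not normalized, TPM, and length and effective length in bases (listed as other). Deposited FPKM values were not used. Expected counts were rounded. Those GeneIDs whose counts over the 8 hamsters compared reached 10 in sum entered edgeR 4.0.16 (quasi-likelihood test, TMM, no covariate). DESeq2 1.42.0, also with effective lengths as normalization factors, was an alternative. Log2 effective length was tested for photoperiod with limma 3.58.1. All p-values were adjusted after Benjamini and Hochberg over all GeneIDs tested, with a threshold of 0.05. CPM use TMM factors over 12 hamsters. The steps were tested on simulated data.

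Members and gene lists were chosen with earlier results of these data known. Names of indicator genes were matched on DESeq2 values with effective lengths (log2(FC) within 0.0051, adjusted p within 0.0006). Rbm3-ps and Egln1 were matched more loosely, to the study's most extremely regulated torpor genes. That match used the rounded size of log2(FC), an upper limit on adjusted p and whether the sign stood against the others. The size of a named gene's log2(FC) there is therefore no independent evidence. Named were, for longer and shorter members apart, the 10 with the largest ratio, the 5 with most counts, the 5 with the smallest adjusted p in torpor counts, members in a gene list and those at the edge of the rule, but without names most are given as ranges. Adjusted p of torpor counts are not given for members, since the rule used that contrast. Other lists (splicing, heat shock, cell type markers and others) could not be applied without names. The groups compared were SP-NT with LP-NT and SP-HT with SP-NT, each 4 against 4 hamsters as labelled. Replicate files differed by more than counting noise (lowest chi-square per degree of freedom 7.01). Genome coordinates and sequences were not used here.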

Additional observations from a re-analysis of the deposited data

Results flagged for a closer look

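The length and counts of 6 members and 4 library values made 48 groups of 4 hamsters. In 4 of these a single hamster stood apart, while about 1 in 20 would do so by chance. The count of GeneID 26568 was 9.78 CPM in LP-NT replicate 03, while the 3 other LP-NT hamsters had 5.39 to 5.95 CPM. Its effective length was also the longest there. The stretch lost to fragment length was 249 bases in SP-HT replicate 33 and 276 to 278 bases in the others of its group. The median deviation of the longer members was 12.8% in SP-HT replicate 10, against 14.8% to 14.95% in the others. The median deviation of the shorter members was -17.0% in SP-HT replicate 02, against -14.3% to -14.0% in the others. All 4 SP-HT hamsters lay beyond the normothermic range in both of these medians, which follows from the rule.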

How the results depend on the processing

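No paired analysis was possible because each hamster was sampled once and the groups compared share no hamster. Longer and shorter GeneIDs numbered 13 and 58 past 1.2-fold, 102 and 242 against SP-NT alone, 84 and 293 against LP-NT alone, and 126 and 322 in labelled males. With at least 500 counts 23 were longer. Leaving out 1 hamster gave 47 to 82 longer and 151 to 213 shorter.

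Torpor calls in counts, 389 in all and 10 in members, were 1017 and 25 in DESeq2, 759 and 30 in DESeq2 with effective lengths, and 242 in all with sex as a covariate. Leaving out 1 hamster gave 104 to 318 calls in all and 5 to 10 in members. Over 1.5 times fewer were called in all without SP-HT replicate 02 (230), 10 (166) or 26 (170) and SP-NT replicate 19 (124), 36 (179), 37 (258) or 38 (104), and in members without SP-HT replicate 26 (6) and SP-NT replicate 19 (6), 37 (6) or 38 (5). Photoperiod calls in counts, 6 in edgeR, were 33 in DESeq2 and 32 with effective lengths. Photoperiod calls in length were 0 to 1 when 1 hamster was left out, the 1 without LP-NT replicate 03, and 0 in members in every setting run.

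With effective lengths in DESeq2 the torpor log2(FC) changed sign for 108907 (-0.51), 230582 (-0.26), 26568 (0.032), 244431 (0.38) and Thrb (-0.15), since counts are then divided by length. The log2(FC) of Thrb, near 0, was also negative without SP-NT replicate 19 (-0.0047) or 37 (-0.012), in a range from -0.012 to 0.14. The ratios of length of these members and Per2 kept their direction in every setting run. For effective length the rule fixes this, so only the setting with unsubtracted length could have turned them. Members near 100 counts rest on few reads per transcript, and the error of an effective length is not given in the files.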

Other observations

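Of the records outside the members, that matched to Rbm3-ps, a pseudogene of a cold-inducible RNA-binding protein, measured 2186, 2350, 2142 and 2323 bases in SP-HT replicates 02, 10, 26 and 33, above 1921 to 1973 bases in all 8 normothermic hamsters, and missed the rule because its mean count in SP-HT was 66.6. Its counts were 3.10 ± 0.676 CPM (SD, n = 4) in SP-HT, below 15.2 ± 1.49 in SP-NT and 14.8 ± 4.03 in LP-NT. The study reports Rbm3-ps as upregulated in torpor, the opposite of this direction. These groups are as labelled, and whether the torpor labels are exchanged was not tested. The record matched to Egln1, an oxygen-sensing prolyl hydroxylase, had 718, 725, 1829 and 793 bases in SP-HT, and of the normothermic hamsters LP-NT replicates 01, 02 and 03 were of like length, with 759 to 857 bases, while LP-NT replicate 05 and all SP-NT hamsters had 1894 to 2098 bases. Its lengths thus fell into a short and a long class, at mean counts of 34.8 to 62.0 per group. All SP-HT hamsters lay below all SP-NT hamsters, with SP-HT replicate 26 near the long class, while LP-NT hamsters fell into both classes. Its counts were higher in SP-HT than in SP-NT (log2(FC) 0.81, standard error 0.16, called by edgeR). Mean TPM, which divides by these lengths, was 9.23 in SP-HT and 2.32 in SP-NT.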
